A study of Mus musculus with 14 samples.

Results

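Non-tumour liver of Abcb11 knockout females was compared with wild-type female liver across all expressed genes outside chromosomes X and Y. The comparison uses 5 of the 14 libraries of the study: 3 of non-tumour Abcb11-/- female liver (numbered 1, 2 and 3) and 2 of wild-type female liver (numbered 2 and 3). All the mice were C57BL/6J, a common inbred strain, and were 52 weeks old. The other 9 libraries, tumour tissue of knockout females and knockout and wild-type male liver (3 each), entered the model only to share its estimate of spread and for the test of a difference from males. The labels do not say which part of Abcb11 was deleted, nor whether tumour and non-tumour tissue came from 1 animal. According to the design text each group had 3 mice; a wild-type female numbered 1 is not analysed here. Only that text says that the libraries of a group came from separate mice, so p-values measure the spread between these libraries. Of the 54532 genes listed, 17874 had enough counts to be tested, and the 17348 of them outside X and Y are described here.

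Abcb11 encodes the bile salt export pump of the canalicular membrane, the step that carries bile salts from the hepatocyte into bile. Without it bile salts build up in the hepatocyte. They are sensed there by nuclear receptors, above all FXR (Nr1h4), with SHP (Nr0b2), CAR (Nr1i3) and PXR as partners, which set the synthesis, uptake and detoxification of bile salts. Basolateral pumps such as Abcc4 and the Slc51a/Slc51b heteromer offer a way back to the blood, and hydroxylation by P450 enzymes, sulfation and glucuronidation make bile salts more soluble.

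The 5 libraries held 15326503 to 18544758 counts. Levels below are TMM-scaled CPM, differences are log2 fold changes (knockout minus wild type) with an SE derived from the edgeR test, and a gene is called at an edgeR adjusted p under 0.05. In every list of values the libraries stand in the order non-tumour 1, 2, 3, then wild-type 2, 3. Hepatocyte markers (Alb, Ttr, Apoa1, Serpina1a and Ahsg) summed to 84592, 70659, 45804 CPM and to 46058, 43858 CPM, while the adipocyte markers Adipoq and Lep had 0 counts in all 5 libraries. In bulk tissue, fewer cells of a type and less RNA per cell cannot be told apart. Mitochondrially encoded genes took 19.1%, 34.2%, 16.7% of counts in the knockout libraries and 34.6%, 33.3% in the wild-type ones, so that non-tumour 2 lay with the wild type. A clock score, the average log2 CPM of Per1, Per2, Per3, Dbp, Tef, Hlf, Nr1d1 and Ciart less that of Arntl, Npas2, Clock and Nfil3 (genes of the daily clock in opposite phase), was −0.32, 2.98, 4.69 in non-tumour liver and 1.65, 1.16 in wild-type liver. The clock scores of the 3 knockout livers spread over a wider range than those of the wild type, on both sides of them.

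**Figure D1:**
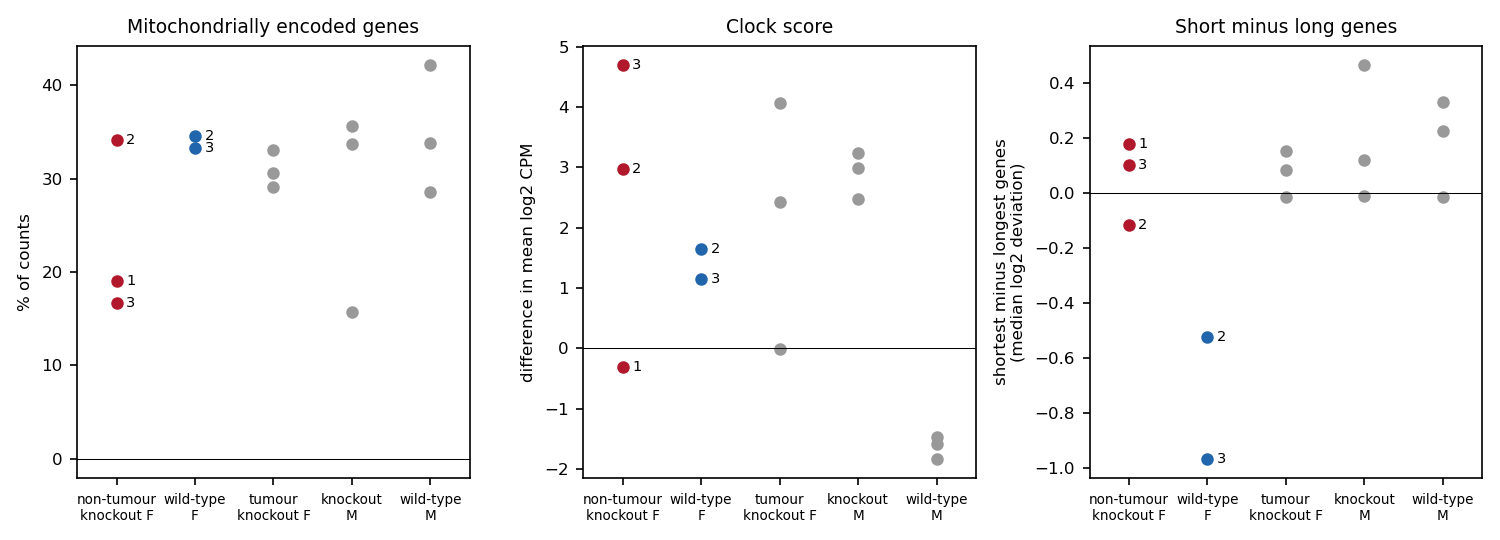
Share of counts from mitochondrially encoded genes (%), clock score (log2 CPM) and level of short minus long genes (log2) in each of the 14 libraries, 1 point per library, with the compared libraries in colour and numbered. Both wild-type females lie lowest in the panel of short minus long genes, at −0.52 and −0.96.

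Gene length separated the groups and has to be read beside every gene group below. Protein-coding genes with a mean above 10 CPM were split into 5 equal groups by length. The median log2 fold change was 0.52 in the shortest group, 0.18, −0.05 and −0.20 in the next ones, and −0.31 in the longest. In the shortest group 120 genes were called higher and 23 lower, against 9 higher and 105 lower in the longest. The shortest group minus the longest, as a median deviation from the mean of all libraries, was 0.18, −0.11, 0.10 in non-tumour liver and −0.52, −0.96 in the wild type. The other 9 libraries ran from −0.01 to 0.47, so both wild-type females, and number 3 most, stood apart from all 12 others. Values with this trend removed from each library, an alternative chosen after seeing the data, are given beside gene groups below. Whether the trend comes from the RNA, the libraries or the livers was not tested.

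**Figure D2:**
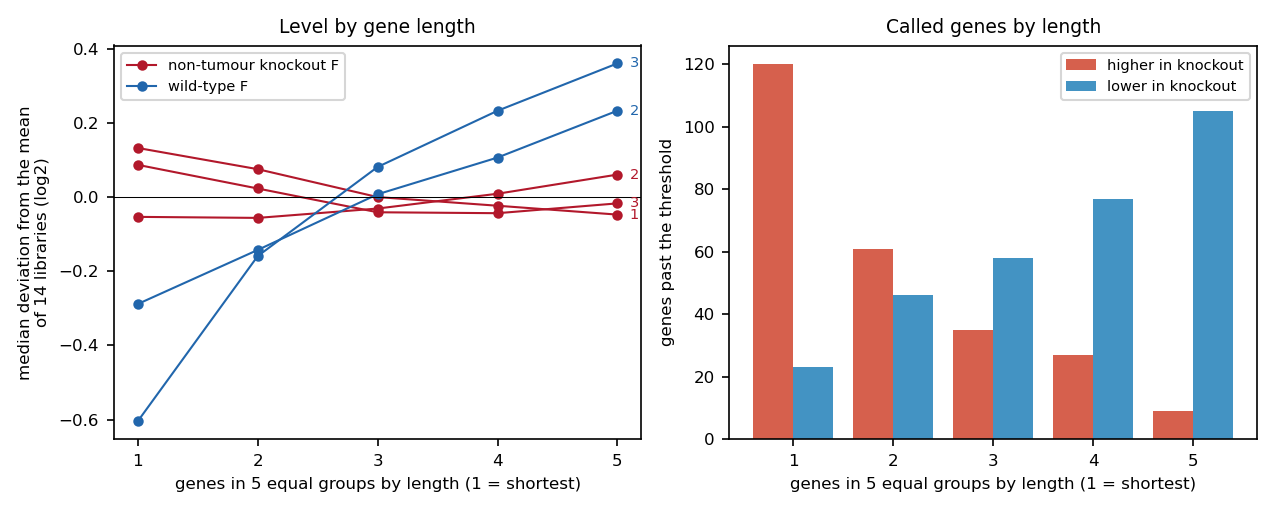
Left, median deviation of each library from the mean of 14 libraries (log2) in 5 equal groups of genes by length. Right, genes called higher or lower in knockout liver in each group, from 120 higher in the shortest to 105 lower in the longest.

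In all, 730 genes were called, which is 4.21% of those tested, with 331 higher (1.91%) and 399 lower (2.30%) in non-tumour knockout liver. Every count of called list members below has to be read beside these shares of 1.91% and 2.30%. The median log2 fold change over all tested genes was −0.00, and 3715 genes had an unadjusted p under 0.05. The groups did not overlap for 4042 genes higher (23.3%) and 4623 lower (26.6%) in knockout liver. With the length trend removed 587 genes were called, of which 30.2% were higher instead of 45.3%, the median over all genes moved to −0.11, and 447 calls were shared with the 730. Tumour and non-tumour libraries of equal number deviated together from their group means (r = 0.486, 0.431 and 0.299), while the fit treats them as independent. For unequal numbers r ran from −0.416 to 0.0641. These values are across 7740 genes, which are not independent replicates. Deviations within a group of 3 sum to 0, so high values for equal numbers push those for unequal numbers down. Without the tumour libraries 574 genes were called, 241 higher and 333 lower. Calls depended on single libraries. With non-tumour 1, 2 or 3 left out 194, 902 and 145 genes were called, without wild-type 2 it was 178, and without wild-type 3 it was 17, of which 16 were among the 730. With 1 wild-type library left, that library is assumed to vary like the other groups. Below, leave-one-out counts are given in this same order of libraries.

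Calls that held with each of the 5 libraries left out numbered 13, with 2 rising and 11 falling, and all 13 were also called under each other setting tried. Abcb11 itself (chromosome 2, 69238282 to 69342616, GRCm38) stood at 21.1, 35.9, 17.9 CPM in knockout and 270, 489 CPM in wild-type liver. The groups did not overlap, and the log2 fold change was −3.93 ± 0.38 (SE, edgeR adjusted p = 0.000273). Reads thus still fell on the gene in every knockout library, and the table does not show on which exons.

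The 11 falling genes included a sulfotransferase, a P450 gene, 2 pseudogenes of P450 genes and a thioesterase. Sult2a8, a liver sulfotransferase known to sulfate bile acids, stood at 0.735, 3.86, 1.31 CPM against 220, 155 CPM, a log2 fold change of −6.59 ± 0.52 (edgeR adjusted p = 3.07e-05), the smallest p of the 13. Cyp3a16, a P450 of the Cyp3a cluster, stood at 2.26, 1.42, 1.67 CPM against 185, 84.7 CPM. Both genes were near the bottom of the range in all 3 knockout livers and far above it in both wild-type livers. The pseudogenes Cyp2d38-ps (log2 fold change −3.29 ± 0.46) and Cyp2d37-ps (−2.80 ± 0.39) also fell. Cyp3a, Sult2a and Cyp2d genes have close copies, and the authors' counting could split reads between them. Acot4, a peroxisomal thioesterase that acts on dicarboxylic acyl-CoAs, fell from 384, 267 CPM to 46.4, 101, 58.6 CPM (log2 fold change −2.25 ± 0.34).

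Regulators and signalling genes were also among the 11 falling genes. E2f8, an atypical E2F repressor linked to hepatocyte polyploidy, stood at 2.99, 1.72, 0.271 CPM against 29.3, 23.3 CPM (log2 fold change −3.99 ± 0.57, edgeR adjusted p = 0.00329). Tcf7l1, a transcription factor of the Wnt pathway that mostly represses, stood at 7.77, 8.84, 4.93 CPM against 62.2, 82.1 CPM (−3.33 ± 0.35, adjusted p = 0.00046). For both, the highest knockout library lay well below the lowest wild-type one. Lifr, the receptor for leukaemia inhibitory factor, stood at 51.6, 78.4, 44.6 CPM, and its wild-type libraries differed widely, at 673 and 169 CPM. Dgkh, a diacylglycerol kinase, fell by 2.87 ± 0.31 on the log2 scale. Tbx3os1, which is antisense to Tbx3, fell by 4.67 ± 0.62. Whether the counting used strand is not given in the sources used here, so reads of Tbx3os1 and Tbx3 cannot be told apart where they overlap.

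Slc1a1 and Alpl were the rising genes of the 13. Slc1a1, a sodium-dependent carrier of glutamate and cysteine, stood at 7.56, 6.47, 7.60 CPM against 0.125, 0.193 CPM (log2 fold change 5.42 ± 0.54, edgeR adjusted p = 0.000494). Alpl, the tissue-nonspecific alkaline phosphatase whose activity in serum is a clinical sign of cholestasis, stood at 57.5, 69.2, 76.4 CPM against 12.3, 18.9 CPM (2.11 ± 0.31, adjusted p = 0.00442). The 3 knockout livers were close to each other for both genes.

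**Figure D3:**
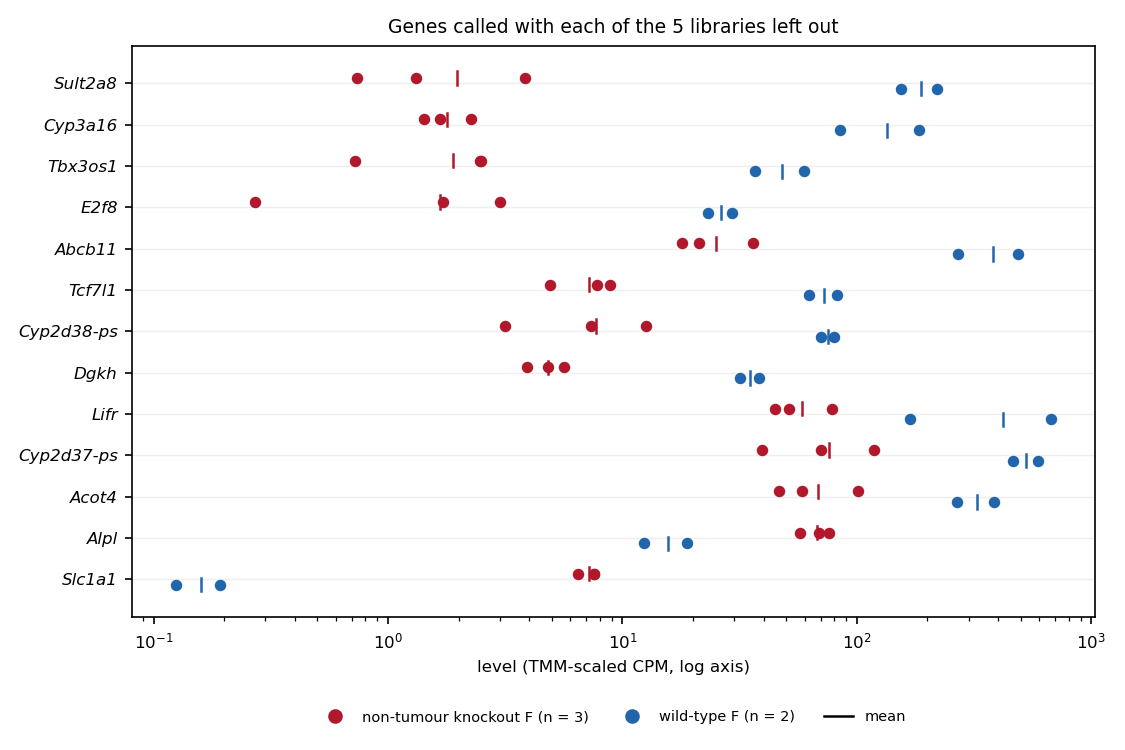
Level of the 13 genes called with each library left out, in CPM on a log axis, 1 point per library with the group mean as a bar. The groups do not overlap for any of them, and Lifr shows the widest wild-type spread, 169 to 673 CPM.

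Among 12 genes of canalicular export, 2 fell (16.7%, against 2.30% of all genes) and none rose. The median log2 fold change was −0.43, with Abcb11 included. Abcb11 is the gene that was knocked out, so its fall is no separate finding about export. The other call was Atp7b, the copper pump that excretes copper into bile, at 22.1, 34.1, 20.2 CPM against 59.2, 67.9 CPM (log2 fold change −1.32 ± 0.31, edgeR adjusted p = 0.0318). Its call was kept only with non-tumour 2 left out. Abcc2, the canalicular pump for conjugated organic anions, stood at 241, 393, 558 CPM against 702, 901 CPM without passing the threshold (−1.01 ± 0.34, adjusted p = 0.104). Abcg5, a subunit of the sterol exporter, had an adjusted p of 0.0927 at −0.95 ± 0.31. Abcb4, the phospholipid floppase, overlapped between the groups (−0.01 ± 0.26).

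Export towards the blood changed in both directions among its 6 genes. Slc51b, the beta subunit of the basolateral steroid transporter, stood at 3.99, 10.6, 13.2 CPM against 0.187, 0.337 CPM (log2 fold change 5.08 ± 1.02, edgeR adjusted p = 0.0256). Its partner Slc51a stood at 0.735, 0.712, 0.317 CPM against 0.0624, 0.0482 CPM, which in wild type is 2 counts in all. The ratio of Slc51a counts was 10.5, with a 95% counting interval of 2.68 to 90.0, and it did not pass the threshold. Abcc4, a pump that exports bile salts with glutathione, stood at 13.2, 18.2, 48.2 CPM against 5.99, 4.14 CPM (2.39 ± 0.66, adjusted p = 0.0583). The groups did not overlap for these 3 genes, and Abcc4 lay just above the threshold. Abcc6, a basolateral pump needed for release of ATP, fell by 1.18 ± 0.31 on the log2 scale (adjusted p = 0.0437). With the length trend removed Slc51b and Abcc6 had adjusted p-values of 0.0529 and 0.0578. The Slc51b call was kept with non-tumour 1 or 2 left out and lost with each of the other 3 libraries, and that of Abcc6 only with non-tumour 2 left out.

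Of 9 uptake carriers 1 fell. Slco1b2, an organic anion carrier that takes up unconjugated bile acids, stood at 196, 247, 242 CPM against 445, 553 CPM (log2 fold change −1.13 ± 0.27, edgeR adjusted p = 0.0316), a call kept only with non-tumour 2 left out. Slc10a1, the main sodium-dependent uptake carrier (NTCP), stood at 157, 147, 155 CPM between the wild-type values of 184 and 116 CPM.

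No enzyme of bile acid ring synthesis was called among 9 tested, with a median of −0.25 (−0.58 with the length trend removed) and 6 of the 9 below 0. At an unadjusted p under 0.05 edgeR gave 1 lower gene, DESeq2 called 0 and limma-voom 1 higher and 2 lower. Cyp7a1, the rate-limiting enzyme, stood at 104, 236, 167 CPM against 437, 197 CPM and overlapped. Cyp8b1, which sets the share of cholic acid, stood at 39.5, 6.94, 26.7 CPM against 147, 66.9 CPM (log2 fold change −2.13 ± 1.04, edgeR adjusted p = 0.273). The Cyp8b1 groups did not overlap, but its knockout libraries differed several-fold from each other. Among 9 enzymes of the side chain and conjugation Acot8, a peroxisomal thioesterase, fell by 0.84 ± 0.23 on the log2 scale (adjusted p = 0.0489), and this call was lost with each library left out in turn.

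Of 13 genes of bile acid sensing 3 fell (23.1%, against 2.30% of all genes) and none rose, with a median of −0.60. Nr1i3 (CAR), a receptor that induces P450, sulfation and glucuronidation genes, stood at 49.3, 87.9, 64.5 CPM against 203, 295 CPM (log2 fold change −1.89 ± 0.37, edgeR adjusted p = 0.017). Nr5a2 (LRH-1), an activator of Cyp7a1 and Cyp8b1, fell by 1.07 ± 0.27 on the log2 scale (adjusted p = 0.0419), with an adjusted p of 0.0654 once the length trend was removed. The leave-one-out counts of this list were 0, 3, 0, 1 and 0. Nr1h4 (FXR) stood at 161, 139, 73.4 CPM against 204, 232 CPM (−0.81 ± 0.32, adjusted p = 0.155). Nr0b2 (SHP), a target of FXR, ranged from 8.34 to 46.2 CPM in knockout liver around wild-type values of 13 and 15.3 CPM. So the FXR and SHP levels did not pass the test, and SHP overlapped.

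**Figure D4:**
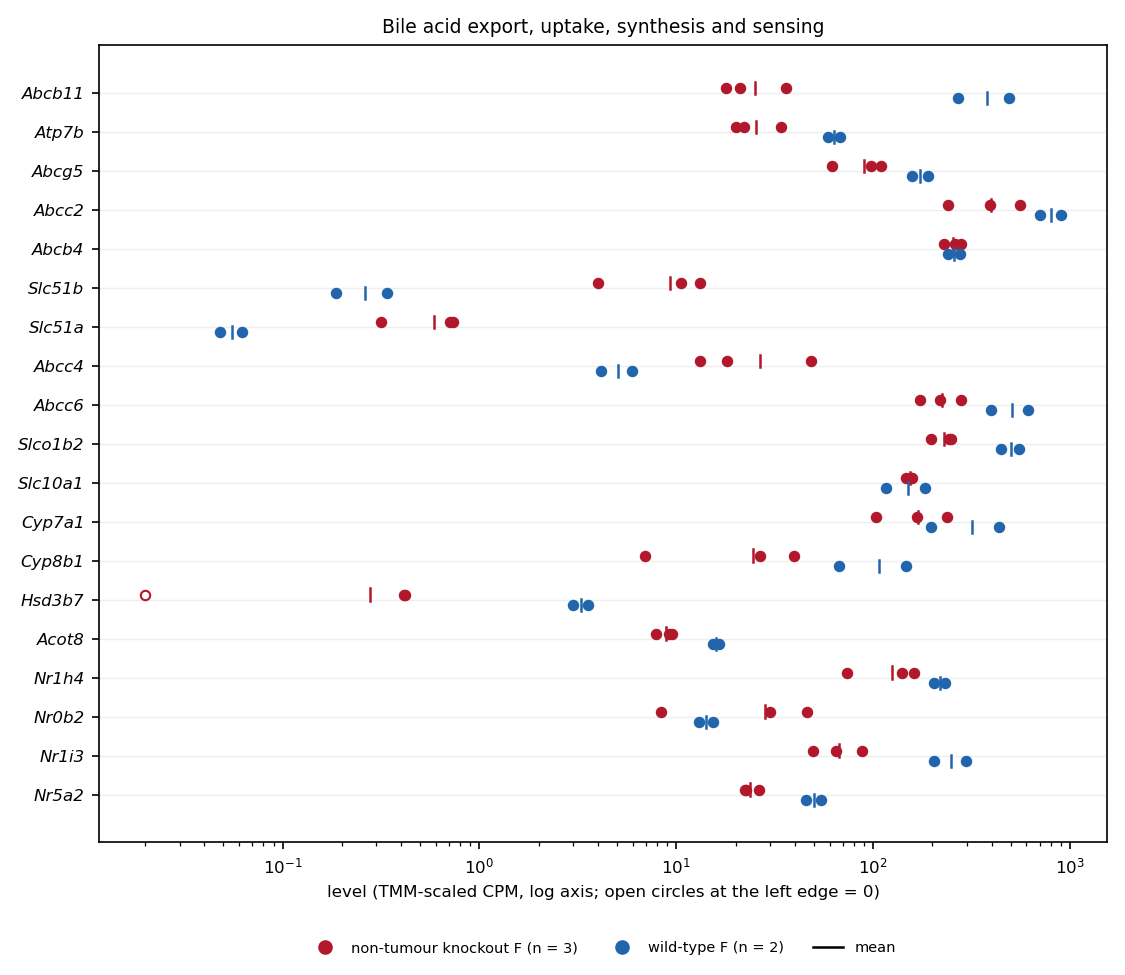
Level of genes of bile acid export, uptake, synthesis and sensing in CPM on a log axis, 1 point per library with the group mean as a bar. Abcb11 is lower and Slc51b higher in all 3 knockout livers, while Abcb4, Slc10a1, Cyp7a1 and Nr0b2 overlap between the groups.

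Drug-metabolising P450 genes and their partners moved in both directions: of 31 tested 4 rose and 2 fell, with leave-one-out counts of 3, 4, 2, 0 and 0 rising and 2, 2, 2, 1 and 1 falling. Cyp3a11, the main Cyp3a enzyme of mouse liver and a hydroxylase of bile acids, stood at 5959, 4837, 6874 CPM against 311, 383 CPM (log2 fold change 4.08 ± 0.65, edgeR adjusted p = 0.00664). Cyp3a16, from the same cluster, went the other way, as given above. Cyp2c55 stood at 8.55, 23.2, 7.05 CPM against 0.374, 0.434 CPM (4.97 ± 1.01, adjusted p = 0.0235). Cyp2a5, a coumarin hydroxylase, stood at 880, 1874, 7148 CPM against 329, 192 CPM and varied most among the knockout livers. Alas1, the first enzyme of heme synthesis, rose by 1.62 ± 0.35, and Cyp2d40 fell by 2.35 ± 0.47 on the log2 scale. Of this list 12.9% were called higher and 6.45% lower, against 1.91% and 2.30% of all genes. The calls of Cyp3a11, Cyp2c55, Alas1 and Cyp2a5 were each lost without wild-type 2 and without wild-type 3.

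Sulfation genes were mixed. Of 17 tested 3 fell (17.6%, against 2.30% of all genes) and none rose. In sign, 10 had a positive and 7 a negative log2 fold change. Without overlap 5 were higher and 6 lower, near the shares over all genes (23.3% and 26.6%). Falling members had leave-one-out counts of 1, 2, 1, 1 and 1. Sult2a7 stood at 0, 0.178, 0.0904 CPM against 5.61, 1.06 CPM, and Sult5a1 at 1.31, 0.593, 0.452 CPM against 10.6, 6.22 CPM. Both were lower in all 3 knockout livers, and the Sult5a1 call (log2 fold change −3.41 ± 0.83, edgeR adjusted p = 0.0351) was lost with each library left out. Rising members were called under other settings: 2 by DESeq2, 3 by limma-voom, 4 without the low-count filter, 1 in the 5 libraries alone and 2 without the tumour libraries. The list's median was 0.36, and −0.03 with the length trend removed. Of 18 genes of glucuronidation only Ugdh, which makes the UDP-glucuronate that the transferases use, rose (1.68 ± 0.32, adjusted p = 0.0161, at 272, 271, 319 CPM against 98.0, 81.4 CPM), and its call was lost without wild-type 2 and without wild-type 3.

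Of 22 glutathione transferase genes 6 rose (27.3%, against 1.91% of all genes), none fell and 16 did not pass the test, with a median log2 fold change of 1.01. Gstm3 stood at 740, 940, 353 CPM against 22.3, 9.64 CPM (log2 fold change 5.41 ± 0.78, edgeR adjusted p = 0.00376). Among the fits with a library left out, its call was lost only without wild-type 3. Gsta1 stood at 24.3, 90.5, 60.2 CPM against 0.624, 0 CPM, and Gsta2 at 76.0, 179, 320 CPM against 11.3, 4.82 CPM. Gm3776, next to Gsta1 and close to it in sequence, had no count in wild-type liver and was at least 31.1-fold higher in each knockout library than the floor of 3 counts per library. All of these lay far above both wild-type livers in every knockout liver, and reads may be shared between the close copies. Gstm1, Gstm2 and Gstp1 rose by 1.94, 2.20 and 2.27 on the log2 scale. The leave-one-out counts were 3, 6, 2, 1 and 0, and with the length trend removed 4 members were called and the median was 0.47, with adjusted p-values of 0.0706 for Gstm1 and 0.0684 for Gstp1.

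Of 24 targets of NRF2, the transcription factor that answers oxidative and electrophilic stress, 7 rose (29.2%, against 1.91% of all genes). None fell and 17 did not pass the test, with a median of 0.95. Nqo1, a quinone reductase, stood at 30.2, 25.9, 66.7 CPM against 5.05, 4.48 CPM (log2 fold change 3.10 ± 0.41, edgeR adjusted p = 0.00268). Srxn1, which reduces oxidised peroxiredoxins, stood at 75.7, 40.8, 88.9 CPM against 17.3, 13.3 CPM (2.17 ± 0.39, adjusted p = 0.0126). Gpx2, a glutathione peroxidase, stood at 4.93, 1.36, 10.7 CPM against 0 counts, at least 7.29-fold above the floor. Nqo1 and Srxn1 kept their calls except without wild-type 3, and non-tumour 2 was the lowest knockout library for all 3. Ephx1 (1.90 ± 0.44), Cbr3 (3.17 ± 0.71), Htatip2 (1.54 ± 0.36) and Gsr (1.33 ± 0.35) rose as well. The leave-one-out counts of rising members were 3, 7, 2, 2 and 0. With the length trend removed 4 were called higher and 1 lower, and Cbr3, Htatip2 and Gsr had adjusted p-values of 0.0654, 0.0844 and 0.0742. Among 19 aldo-keto and aldehyde enzymes 3 rose, with leave-one-out counts of 3, 3, 1, 0 and 0: Akr1b7 at 23.5, 14.9, 58.9 CPM against 0.374, 0.241 CPM (6.71 ± 0.98), Aldh1b1 (2.11 ± 0.42) and Cbr3, which is on both lists.

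Promoters of the glutathione transferase and NRF2 genes were searched on both strands for the core of the antioxidant response element, TGACNNNGC, in windows from 250 bases before to 50 after each RefSeq start site (GRCm38.p6). Of all 32851 windows 12.4% held it, and of the 27025 genes with a window 13.99% held it in at least 1. Of the 41 listed genes with a window 12 held it, and of the 12 called genes with a window Htatip2 and Srxn1 did. Stretches before the start site are shown for Htatip2, which rose, and Gclm, the regulatory subunit of glutamate-cysteine ligase, which did not pass the test (265, 207, 255 CPM against 162, 108 CPM), with the match in capitals. The Htatip2 stretch is chr7:49759438-49759496 on the plus strand and that of Gclm chr3:122245398-122245456, also on the plus strand, where the match reads on the opposite strand.
Htatip2: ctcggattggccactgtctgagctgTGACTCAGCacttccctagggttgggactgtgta
Gclm: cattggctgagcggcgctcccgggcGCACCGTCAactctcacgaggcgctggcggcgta

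The remaining genes with the largest rises had varied roles and very low wild-type levels. Smpd3, a neutral sphingomyelinase, stood at 27.9, 11, 21.9 CPM against 0.187, 0.0964 CPM (log2 fold change 7.14 ± 1.14, edgeR adjusted p = 0.0097). Tmprss4, a membrane serine protease, stood at 6.40, 21.0, 12.2 CPM against 0.312, 0 CPM, and Scn2a, a voltage-gated sodium channel, at 6.24, 8.37, 10.8 CPM against 0.249, 0 CPM. Cib3, a calcium-binding protein, stood at 58.9, 72.7, 170 CPM against 0.374, 3.81 CPM. All 3 knockout livers were above both wild-type livers for each gene, and Cib3 showed the largest gap between the wild-type libraries. Lrtm2 stood at 7.03, 8.49, 43.8 CPM against 0.374, 0.385 CPM. Dnah1, a dynein heavy chain of cilia, stood at 5.88, 5.93, 7.87 CPM against 0, 0.145 CPM, which is 3 wild-type counts in all. The Dnah1 count ratio was 81.6 with a 95% counting interval of 27.7 to 397. Scn2a and Tmprss4 kept their calls except without wild-type 3, and Smpd3 was also lost without wild-type 2. Cib3 and Dnah1 were lost in 4 of the 5 leave-one-out fits, all but that without non-tumour 2, and Lrtm2 in 3.

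Large falls outside the 13 genes included a secreted protein, a receptor and lipid enzymes. Mup3, a major urinary protein, stood at 5.04, 9.20, 0.723 CPM against 546, 385 CPM (log2 fold change −6.55 ± 1.42, edgeR adjusted p = 0.0306). Mup genes are near-identical, so Mup3 is uncertain. Adrb3, a beta-adrenergic receptor, stood at 1.47, 0.771, 0.0452 CPM against 21.1, 37.3 CPM (−5.27 ± 0.93). Sdr9c7, a short-chain dehydrogenase, stood at 4.83, 3.86, 0.769 CPM against 29.6, 35.5 CPM (−3.37 ± 0.65). Non-tumour 3 was the lowest library for these 3 genes. Lipg, endothelial lipase, stood at 1.47, 4.63, 2.40 CPM against 21.3, 26.2 CPM (−3.07 ± 0.72). The calls of Mup3 and Lipg were kept only without non-tumour 2, that of Adrb3 was lost only without wild-type 3, and that of Sdr9c7 without either wild-type library.

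Genes of the growth hormone axis fell where they were called. Growth hormone acts on hepatocytes through its receptor and STAT5 and sets many sex-biased liver genes. Of 16 genes 4 fell and none rose, with a median of −0.55 (−0.30 with the length trend removed) and leave-one-out counts of 2, 2, 2, 1 and 0. Ghr, the receptor, stood at 102, 131, 84.6 CPM against 436, 323 CPM (log2 fold change −1.84 ± 0.31, edgeR adjusted p = 0.00857). Stat5a stood at 15.2, 15.8, 8.37 CPM against 43.8, 43.7 CPM (−1.74 ± 0.30, adjusted p = 0.0104), a call lost only without wild-type 3. Bcl6, a repressor of STAT5 targets, stood at 7.97, 11.2, 11.3 CPM against 33.6, 38.4 CPM (−1.82 ± 0.44), and Prlr, the prolactin receptor, fell by 1.56 ± 0.42 on the log2 scale. None of these 4 overlapped between the groups, and Prlr had an adjusted p of 0.13 with the length trend removed. Of 27 female-biased genes Cyp3a16, Acot3 (−2.00 ± 0.45) and Prlr fell, and 9 had a positive log2 fold change. Without overlap 14 of the 27 were lower and 4 higher, where the shares over all genes were 26.6% and 23.3%. The median of the female-biased genes was −0.71, or −1.14 with the length trend removed. Of 29 male-biased genes Gstp1 rose while Mup3 and Bcl6 fell. The median of the male-biased genes was 0, or −0.36 with the length trend removed, and 5 were higher and 7 lower without overlap. Leave-one-out counts were 1, 3, 1, 1 and 1 for the female-biased genes that fell.

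Cholesterol synthesis genes fell where they were called. Of 24 tested 4 fell (16.7%, against 2.30% of all genes) and none rose, 23 had a negative log2 fold change, and the median was −1.21. Without overlap 18 were lower, where the share over all genes was 26.6%. Fdps, farnesyl diphosphate synthase, stood at 1.10, 8.43, 2.13 CPM against 26.9, 34.6 CPM (log2 fold change −2.99 ± 0.71, edgeR adjusted p = 0.0346). Idi1, the isomerase one step earlier, stood at 0.735, 6.35, 4.21 CPM against 25, 31.6 CPM (−2.91 ± 0.76, adjusted p = 0.0468). Hsd17b7 fell by 1.69 ± 0.37 and Sc5d by 1.37 ± 0.37. Non-tumour 2 was the highest knockout library for Fdps and Idi1, and without it 11 members were called, while with any of the other 4 libraries left out none was. Hmgcs1, the entry step, stood at 140, 690, 120 CPM against 747, 664 CPM, so that non-tumour 2 lay within the wild-type range. Cholesterol synthesis follows feeding and daily phase, and the 3 knockout livers differed in clock score as given above. With the clock score as a covariate 10 members were called lower, Fdps and Idi1 among them. The count was 3 with the length trend removed, 2 with the replicate block, 1 in the 5 libraries alone, 7 by DESeq2 and 17 by limma-voom.

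Genes called in fatty acid oxidation fell and those called in lipid storage rose, and the difference between the lists was not tested. Of 24 oxidation genes 2 fell and none rose, with a median of −0.51 (4 lower and −0.85 with the length trend removed) and leave-one-out counts of 1, 2, 2, 1 and 0. Ppara, the nuclear receptor that drives oxidation in fasting, stood at 12.0, 18.6, 19.5 CPM against 82.1, 65.4 CPM (log2 fold change −2.14 ± 0.38, edgeR adjusted p = 0.0118). Cyp4a14, an omega-hydroxylase and PPAR-alpha target, stood at 315, 296, 455 CPM against 1324, 1439 CPM (−1.96 ± 0.35, adjusted p = 0.0126). Both were lower in all 3 knockout livers by a wide margin. These 2 calls made up 8.33% of the oxidation list, against 2.30% of all genes. Of 14 lipid droplet and adipocyte-type genes 3 rose and none fell, with leave-one-out counts of 1, 3, 1, 1 and 0. The 3 calls made up 21.4% of this list, against 1.91% of all genes. Of the 14, 4 had a negative log2 fold change, and 1 was called lower by DESeq2, 2 by limma-voom and 1 with the length trend removed. Lpl, lipoprotein lipase, stood at 523, 241, 324 CPM against 13.3, 10.4 CPM (4.94 ± 0.84, adjusted p = 0.0126). Fabp4, a fatty acid carrier of adipocytes and macrophages, stood at 42.1, 13.5, 21.8 CPM against 3.99, 4.96 CPM (2.52 ± 0.60), and Pparg, the adipocyte nuclear receptor, rose by 1.63 ± 0.34. The adipocyte markers Adipoq and Lep were at 0 counts throughout. Neither of 2 further lists had a call. Of 19 lipogenesis genes 2 were lower at an unadjusted p under 0.05, DESeq2 and limma-voom each called 2 lower, and 1 was called lower with the length trend removed. Of 20 daily clock genes 1 was higher and 3 lower at an unadjusted p under 0.05, against 1 and 2 by DESeq2 and 0 and 4 by limma-voom.

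Periportal and amino acid genes had mostly positive differences. Of 18 periportal genes 3 rose and none fell, with a median of 1.12: Aldh1b1, Cdh1 and Ass1, with leave-one-out counts of 2, 2, 0, 0 and 0. The 3 calls made up 16.7% of the periportal list, against 1.91% of all genes. With the length trend removed 2 were called higher and the median was 0.73. Ass1, the urea cycle enzyme argininosuccinate synthase, stood at 1719, 1988, 3540 CPM against 476, 485 CPM (log2 fold change 2.33 ± 0.63, edgeR adjusted p = 0.0491), a call lost with each library left out and with the length trend removed (adjusted p = 0.07). Arg1, which releases urea, stood at 2715, 1690, 2459 CPM against 643, 770 CPM with an adjusted p of 0.0604. Of 25 genes of the urea cycle and amino acid breakdown Ass1 alone was called, while 22 had a positive log2 fold change. The median of these 25 was 0.80, or 0.51 with no member called once the length trend was removed. Bhmt, which remethylates homocysteine from betaine, stood at 6367, 4654, 4458 CPM against 1382, 935 CPM (2.15 ± 0.43, adjusted p = 0.0179), the only call among 18 one-carbon genes, and it was lost without non-tumour 1 and without either wild-type library. Of 21 pericentral genes 1 fell: Tbx3, a target of beta-catenin, at 27.2, 21.3, 16.4 CPM against 89.6, 72.7 CPM (−1.91 ± 0.48, adjusted p = 0.0433, and 0.069 with the length trend removed), a call lost with each library left out. G6pc, the last enzyme of glucose release, stood at 324, 94.9, 53.4 CPM against 476, 1174 CPM (−2.39 ± 0.62, adjusted p = 0.0468), the single call among 17 genes of gluconeogenesis and glycogen, kept only without non-tumour 1.

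Interferon response genes fell where they were called. Of 38 tested 7 fell (18.4%, against 2.30% of all genes) and none rose, 33 had a negative log2 fold change and the median was −0.75. Without overlap 21 were lower, where the share over all genes was 26.6%. Irgm2, an interferon-inducible GTPase, stood at 13.1, 15.8, 12.8 CPM against 51.4, 57.2 CPM (log2 fold change −1.96 ± 0.33, edgeR adjusted p = 0.00806), a call lost only without wild-type 3. Stat2 stood at 101, 123, 35.3 CPM against 229, 290 CPM (−1.59 ± 0.40), and its partner Irf9, with which it forms the factor that binds interferon response elements, at 30.2, 31.6, 20.4 CPM against 60.6, 63.7 CPM (−1.18 ± 0.28). These 3 genes were lower in every knockout liver than in either wild-type liver. Rtp4 (−1.37 ± 0.28), Iigp1 (−1.07 ± 0.25), Ifi27 (−1.42 ± 0.35) and the guanylate-binding protein Gbp7 (−1.55 ± 0.41) fell too. The leave-one-out counts were 1, 8, 1, 1 and 0, and with the length trend removed 6 members were called and the median was −0.95.

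Promoters of these genes were searched on both strands for GAAANNGAAA, the letters of an interferon-stimulated response element. Of the 32851 RefSeq windows (GRCm38.p6, from 250 bases before to 50 after the start) 3.44% held it, and of the 27025 genes with a window 3.99% did in at least 1. Of the 26 listed genes with a window 17 held it. Of the 4 called genes with a window Irgm2, Stat2 and Gbp7 held it. Ifit1, an interferon target whose levels overlapped (7.08, 14, 6.06 CPM against 20.5, 10.9 CPM), held it in 2 places, so the letters were present in genes that fell and in one that did not pass the test. The stretches are chr11:58214888-58214947 (Irgm2), chr10:128270251-128270310 (Stat2), chr3:142530258-142530317 (Gbp7) and chr19:34640760-34640838 (Ifit1), all on the plus strand, with each match in capitals. In Stat2, Gbp7 and Ifit1 the match reads on the opposite strand.
Irgm2: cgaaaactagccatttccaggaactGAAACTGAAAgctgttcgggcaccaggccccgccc
Stat2: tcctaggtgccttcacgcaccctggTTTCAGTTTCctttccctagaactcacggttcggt
Gbp7: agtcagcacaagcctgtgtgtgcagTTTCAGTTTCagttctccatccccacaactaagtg
Ifit1: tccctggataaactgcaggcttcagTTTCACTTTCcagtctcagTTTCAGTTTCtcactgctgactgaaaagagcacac

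Macrophage genes rose where they were called. Of 25 tested 6 rose (24.0%, against 1.91% of all genes) and none fell, and the median was 1.51. Without overlap 19 were higher, where the share over all genes was 23.3%. Cd14, a receptor for bacterial lipopolysaccharide, stood at 28.4, 10.03, 17.3 CPM against 3.43, 1.16 CPM (log2 fold change 3.03 ± 0.63, edgeR adjusted p = 0.0206). Csf1r, the receptor that macrophages need to survive, stood at 54.1, 81.6, 41.6 CPM against 22.6, 26.7 CPM (1.26 ± 0.28, adjusted p = 0.0256). Lgals3 (2.59 ± 0.57), C1qa (1.94 ± 0.44), Trem2 (3.43 ± 0.87) and Cd5l (1.82 ± 0.47) rose as well. The Kupffer cell marker Clec4f stood at 95.5, 176, 28.0 CPM against 39.6, 48.1 CPM and overlapped, and Adgre1 stood at 2.89, 3.56, 2.89 CPM against 1.56, 0.626 CPM without passing the test. The 4 Kupffer cell markers outside chromosome X summed to 144, 250, 77.5 CPM against 58.4, 63.3 CPM. The leave-one-out counts of the macrophage list were 1, 4, 2, 1 and 0, and 3 members were called with the length trend removed, without Lgals3, C1qa and Cd5l. Of 24 lysosomal genes, many of which macrophages hold at high levels, Ctsd (1.74 ± 0.36), Ctsb (1.41 ± 0.35) and Hexa (0.87 ± 0.23) rose, with leave-one-out counts of 0, 2, 0, 2 and 0, and 2 were called with the length trend removed.

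Bile duct and ductular genes had 2 calls. Of 28 tested 2 rose (7.14%, against 1.91% of all genes) and none fell. Without overlap 22 were higher and 3 lower, where the shares over all genes were 23.3% and 26.6%. DESeq2 and limma-voom each called 5 higher and 2 lower, and the median was 1.35, or 0.98 with the length trend removed. Mmp7, a matrix protease of injured bile duct epithelium, stood at 28.6, 22.5, 34.7 CPM against 3.93, 1.11 CPM (log2 fold change 3.52 ± 0.77, edgeR adjusted p = 0.027). Cdh1, E-cadherin, which bile ducts and periportal hepatocytes share, stood at 35.3, 30.6, 63.4 CPM against 8.61, 7.66 CPM (2.41 ± 0.51, adjusted p = 0.024). The defining keratins did not pass: Krt19 stood at 29.0, 21.2, 16.6 CPM against 4.12, 3.47 CPM (adjusted p = 0.0663) and Krt7 at 16.0, 17.4, 12.2 CPM against 4.05, 2.31 CPM (adjusted p = 0.063). Neither keratin overlapped between the groups. Sox9 was near-equal, at 14.1, 13.2, 14.5 CPM against 13.1, 10.4 CPM, and Epcam had an adjusted p of 0.318. The 5 cholangiocyte markers summed to 71.7, 64.6, 69.1 CPM against 29.1, 21.3 CPM. The leave-one-out counts were 1, 2, 0, 0 and 0.

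Among 42 genes of fibrosis, matrix and stellate cells only Timp2, an inhibitor of matrix proteases, rose (log2 fold change 1.73 ± 0.36, edgeR adjusted p = 0.0201, at 19.9, 17.4, 38.7 CPM against 8.98, 6.31 CPM), with a list median of 0.65 and leave-one-out counts of 1, 1, 0, 0 and 0. None of 30 endothelial genes was called, by edgeR, DESeq2 or limma-voom, and 3 were higher at an unadjusted p under 0.05. The 4 stellate markers summed to 58.3, 83.9, 59.6 CPM against 61.5, 54.5 CPM, and the 3 endothelial markers to 78.1, 73.5, 62.2 CPM against 73.3, 89.0 CPM, so both sets overlapped between the groups.

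Acute phase genes set non-tumour 1 apart. None of 25 was called by edgeR, although 23 had a positive log2 fold change and the median was 1.25. At an unadjusted p under 0.05, 4 were higher and 1 lower, and DESeq2 and limma-voom called 3 and 6 higher. Lcn2, an iron-scavenging acute phase protein, stood at 2295, 79.7, 78.6 CPM against 19.5, 8.67 CPM. Saa1, serum amyloid A, stood at 2685, 29.1, 15.2 CPM against 33.4, 3.81 CPM, and Hpx, hemopexin, at 11650, 3112, 2350 CPM against 1668, 982 CPM. Non-tumour 1 was many-fold above both other knockout livers for Lcn2 and Saa1, and Saa1 in non-tumour 2 and 3 lay within the wild-type range.

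Respiratory chain genes had few calls by edgeR. Of 37 nuclear-encoded respiratory chain genes all 37 had a positive log2 fold change, with a median of 0.99. Without overlap 33 were higher, against 23.3% of all genes. Only Atp5o was called by edgeR (log2 fold change 1.13 ± 0.30, edgeR adjusted p = 0.0468, and 0.133 with the length trend removed, a call lost with each library left out). At an unadjusted p under 0.05, 27 were higher, and DESeq2 and limma-voom called 17 and 22 higher. The nuclear-encoded genes are short, and the list's median was 0.52 with the trend removed. All 13 mitochondrially encoded genes had a negative log2 fold change, with a median of −0.68 and none called by edgeR, while with the length trend removed 4 were called lower and the median was −1.52. The difference between these lists was not tested. Of the mitochondrially encoded genes 5 were lower at an unadjusted p under 0.05, and DESeq2 and limma-voom called 5 and 4 lower. Their share of counts in non-tumour 2 was that of the wild type, as given above. Of 39 cell cycle genes 27 had a positive log2 fold change, with a median of 0.52 (0.39 with the length trend removed). Without overlap 11 were higher and 7 lower, where the shares over all genes were 23.3% and 26.6%. None of the 39 was called higher and 5.13% were called lower, against 2.30% of all genes. In the cell cycle list 2 of 39 fell: E2f8 and Tk1, thymidine kinase, at 12.7, 32.4, 23.2 CPM against 63.7, 82.7 CPM (−1.68 ± 0.39, adjusted p = 0.0298), the latter called only without non-tumour 2 among the leave-one-out fits. Of 25 p53 targets Gadd45b alone rose (1.60 ± 0.37, adjusted p = 0.0276, and 0.217 with the trend removed), a call kept without non-tumour 2 and without wild-type 3.

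**Figure D5:**
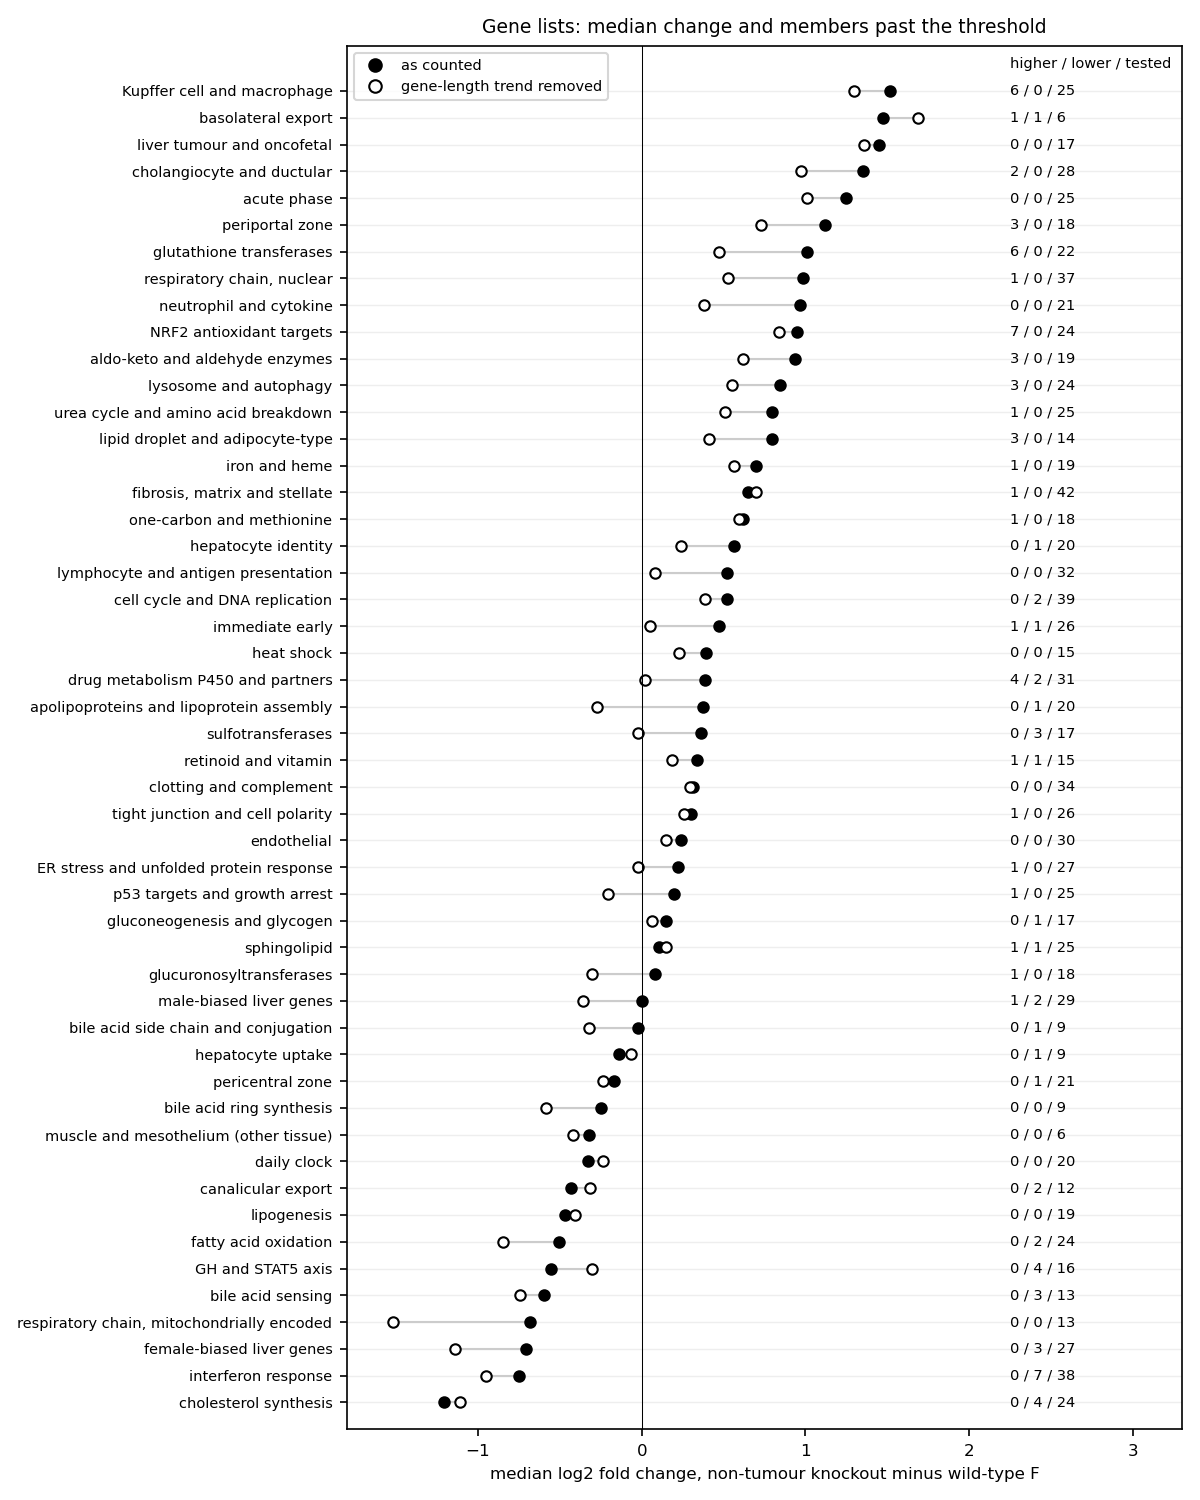
Median log2 fold change (non-tumour knockout minus wild-type females) of each gene list with at least 6 tested members, as counted (filled) and with the gene-length trend removed (open), with the members called higher, called lower and tested. As counted, cholesterol synthesis (−1.21) and interferon response (−0.75) lie lowest and macrophage genes (1.51) highest, while with the trend removed mitochondrially encoded genes (−1.52) and female-biased genes (−1.14) lie lowest and basolateral export (1.69) highest.

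The knockout effect was also tested for a difference between females and males, as the female effect minus the male one. This difference was called for 1902 genes, 11% of those tested, with 390 higher and 1512 lower in females, and 308 of the 730 genes were among them. Both tests use the same female libraries, so a gene called in the first is more likely to be called in the second. The wild-type males had clock scores of −1.83, −1.47 and −1.58 and the knockout males 3.23, 2.47 and 2.99, so in males clock gene levels moved with the knockout. The score is made from gene levels, not from sampling times. An effect of the knockout on these genes and a difference in daily phase thus cannot be told apart. With the clock score as a covariate 555 genes were called. Among the 13 genes above Sult2a8 was one that differed. It fell by 6.59 on the log2 scale in females and its log2 fold change was −0.38 in males, at 226 ± 37.0 CPM in knockout and 294 ± 58.8 CPM in wild-type males (SD, n = 3 each). The difference was −6.21 ± 0.62 (edgeR adjusted p = 0.000157). Dgkh had similar values in both, −2.87 in females and −2.59 in males, with a difference of −0.28 ± 0.42.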

How the data were processed

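Liver RNA of 14 libraries in 5 groups was sequenced in read pairs. Per the submitters' processing notes, the authors used HISAT2 2.0.5 for alignment, featureCounts 1.5.0-p3 for counting per gene and the build GRCm38; other settings are not given in the sources used here. The count columns were deposited as whole counts without scaling, and the deposited FPKM columns, which the authors scaled for length and depth, were checked and not tested. Of the deposited symbols 27 read as dates and were replaced by gene ID.

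Groups come from the sample titles. The 14 libraries were fitted together in edgeR 4.0.16 under R 4.3.3: TMM scaling, filterByExpr on the 5 groups, robust dispersion and a 2-sided quasi-likelihood F test, adjusted by Benjamini-Hochberg over all genes tested including X and Y, with a threshold of 0.05. The contrast was non-tumour knockout minus wild-type females; a second tested its difference from the male contrast. All adjusted p-values are from this fit unless another setting is named. Library numbers were not used as pairs. The fit was also run on simulated counts. Those had independent libraries and no gene-length trend, so that run cannot show how the fit behaves under these features of the data. Totals limit low levels: a floor of 3 counts per library and the 95% count intervals cover counting error only.

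Genes named are the 12 rising and 12 falling protein-coding calls of largest log2 fold change (at least 5 CPM in the higher group, no overlap), every call kept with each library left out, up to 3 members of smallest p per list described, other called members of those lists (a few members are counted in their list but not reported here by name), and further bile acid genes and markers. Members of 52 lists (1072 genes) and the rules were chosen with earlier results of these data known. Alternatives were RLE and upper-quartile scaling, a filter of 1 CPM, no filter, the 5 libraries alone, DESeq2 1.42.0, limma-voom (limma 3.58.1), a clock score covariate, a replicate block, and libraries left out. Added after seeing the data was an edgeR offset that removes each library's trend of level on gene length (lowess through protein-coding genes above 10 CPM).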

Additional observations from a re-analysis of the deposited data

Results flagged for a closer look

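For 12 of the genes named by size or by holding with every library left out, the knockout effect differed between females and males in the same edgeR fit, as female minus male log2 fold change. Lower in females than in males were Sult2a8 (−6.21), Cyp2d38-ps (−6.39), Cyp2d37-ps (−3.44), Tcf7l1 (−2.22), Abcb11 (−1.99), Acot4 (−2.10) and Lifr (−3.74). Cholesterol and lipid genes differed likewise: Idi1 (−7.89), Fdps (−5.80) and Lipg (−5.20) fell in females, with log2 fold changes of 4.98, 2.80 and 2.13 in males. Slc1a1 (−5.54) and Cyp3a16 (−13.86) had 0 CPM in all 3 wild-type male libraries, at 14.2 ± 2.59 and 1.36 ± 1.08 CPM in knockout males (SD, n = 3), so their fitted differences depend on the prior count and are no bounds. Wild-type and knockout males differed in clock score without overlap, and that part of these differences was not tested gene by gene.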

How the results depend on the processing

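Against 730 calls, DESeq2 gave 1876 (974 higher, 902 lower), limma-voom 3295 (1391 and 1904), no low-count filter 1705 (1100 and 605), the 5 libraries alone 1041 with 532 higher and 501 shared with the 730, and the removed length trend 177 higher. With the replicate block 474 were called (184 higher). Deviations of equal numbers correlated at −0.256 and −0.135 over 7740 genes. With only 2 wild-type libraries their deviations mirror each other, so these values cannot decide whether the numbers pair these groups. Leaving out 1 compared library gave 17 to 902 calls, 4 to 431 higher and 13 to 471 lower. RLE and upper-quartile scaling, the 1 CPM filter, the clock covariate and a fit without tumour libraries gave 734, 777, 778, 669 and 574. The 1902 genes of the female and male difference became 2971 with DESeq2, 3221 with limma-voom and 555 with the clock covariate, and 564 to 2535 with a library left out. Only Slc10a1 and Abcb4, uncalled and near 0, changed sign among the named genes: Slc10a1 to −0.018 with the clock covariate, −0.34 with the length trend removed and −0.23 to 0.41 with a library left out; Abcb4 to 0.026 (1 CPM filter), 0.037 (5 libraries alone), 0.20 (length trend), 0.060 (no filter), 0.011 (replicate block), 0.024 (upper quartile) and −0.10 to 0.14 with a library left out. The cause was not tested. Calls of genes at a few CPM are limited by depth and by the 2 wild-type libraries.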

Other observations

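Cytosolic ribosomal protein genes, a list chosen after seeing the data, had 26 of 74 tested members higher and none lower in non-tumour knockout liver. Their median log2 fold change was 1.29, and 66 members were higher without overlap. Over all genes 1.91% were called higher and 23.3% were higher without overlap. The ribosomal protein genes are short, with a median length of 1775.5 bases, and their median was 0.86 with the length trend removed. Processed pseudogenes, many of which are copies of such genes, had a median of 0.54, with 21 higher and 1 lower of 677. For 670 antisense RNAs the median was −0.74, with 11 called lower and none higher. For 653 long intergenic RNAs it was −0.34, with 11 called lower and 4 higher. Neither count of lower calls exceeded the 2.30% called lower over all genes. Since use of strand in the counting is not given, reads of an antisense RNA and of the gene it overlaps cannot be told apart. Long intergenic RNAs took 0.545%, 0.623%, 0.625% of counts in the knockout libraries and 0.819%, 1.01% in the wild-type ones, in the order given above. Both wild-type libraries were higher in this share.

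Among other lists, iron and heme genes had 1 rising member of 19, Fth1, the ferritin heavy chain, with 1269, 1005, 1796 CPM in knockout and 478, 222 CPM in wild-type liver (adjusted p = 0.0401 by edgeR, or 0.103 with the length trend removed). Rdh16, a retinol dehydrogenase among 15 tested retinoid and vitamin genes, fell by 0.89 ± 0.24 on the log2 scale. Klf10, an early response repressor with a daily rhythm, had 22.5, 11.3, 26.5 CPM in knockout and 45.5, 96.0 CPM in wild-type liver and fell by 1.81 ± 0.37 (adjusted p = 0.0194 by edgeR). Sphk2, a sphingosine kinase, fell by 1.19 ± 0.26. The call of Klf10 held in 3 of the 5 leave-one-out fits, that of Sphk2 in 2, that of Fth1 in 1 and that of Rdh16 in none.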
